A study of Caenorhabditis elegans with 9 samples.

Results

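The lysozyme genes lys-1 to lys-10 of Caenorhabditis elegans were followed on 9 one-colour expression arrays of wild-type animals and of animals labelled as double mutants of the Piwi genes prg-1 and prg-2. A probe set (a group of short probes that together measure 1 transcript) was taken as a member when the platform annotation gave exactly one of these symbols as its gene. That rule found 10 probe sets for 10 genes, 1 each, out of 22548 probe sets and 17118 singly named genes. A further probe set that carries the names of both lys-5 and lys-6 was not counted as a member.

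All animals were whole young adults. The wild-type group was strain N2 with 3 arrays. One mutant strain, MT14769, carried the alleles prg-1(n4357) and prg-2(n4358), had 3 arrays and is called n4357 n4358 here. The other, SX9, carried prg-1(n4503) and prg-2(nDf57), had 3 arrays and is called n4503 nDf57. prg-1 encodes the Piwi-class Argonaute that binds piRNAs in the germline, and prg-2 is its close relative. Each genotype was represented by 1 strain, so allele and strain background cannot be told apart. RNA came from pellets of many animals, and in such bulk samples fewer cells of a type and less RNA per cell cannot be told apart.

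Lysozymes are enzymes that cut the peptidoglycan of bacterial cell walls. In C. elegans, which feeds on bacteria, they serve both to digest food and to defend the gut. The lys genes belong to a family related to the lysozymes of amoebae and other protists, while a separate family, the ilys genes, resembles lysozymes of other invertebrates. Several lys genes are known from the intestine and are induced by bacterial infection, under the control of the p38 kinase PMK-1, of the TGF-beta ligand DBL-1 and of the insulin-regulated factor DAF-16.

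The values are RMA levels on the log2 scale, so a difference of 1 is a 2-fold change, and 3 arrays a group limit their precision. Array medians lay between 4.76 and 4.83 log2. The prg-1 probe set averaged 6.16 ± 0.76 log2 on wild-type arrays, 6.72 ± 1.24 on those of n4357 n4358 and 7.10 ± 0.39 on those of n4503 nDf57 (SD, n = 3 each), so it was not lower in the mutants. The prg-2 probe set averaged 6.29 ± 0.27, 5.87 ± 0.35 and 6.03 ± 0.21 in the same order, and the groups overlapped in both genes. No source used here places these probes relative to the mutated parts, so they check no label. The strongest pattern of variation inside the groups held 59.8% of that variation and set 1 array of each group apart, namely replicate 2 of wild type, replicate 3 of n4357 n4358 and replicate 1 of n4503 nDf57. On those arrays the mean of 20 moulting genes was 7.19, 6.94 and 7.04 log2, against 7.71 to 8.05 on the other 6. Nothing in the labels says that replicates were separate cultures, and p-values therefore measure only how far these samples spread, which may be technical.

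The members farthest from wild type were lys-4 on the lower and lys-7 on the higher side of wild type. The lys-4 level was 3.99-fold lower in n4357 n4358 than in wild type and 1.71-fold lower in n4503 nDf57, and the lys-7 level was 2.13-fold and 2.17-fold higher. The strongly hybridising lys-1 and lys-2 had group means of 11.92 to 12.16 and 12.18 to 12.47 log2, and the groups overlapped in both. None of the 10 members passed limma's test with Benjamini-Hochberg adjustment over all probe sets at 0.05 in any of the 4 contrasts, nor did any other probe set (0% called). All lysozyme differences below are therefore measured values, not calls.

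**Figure D1:**
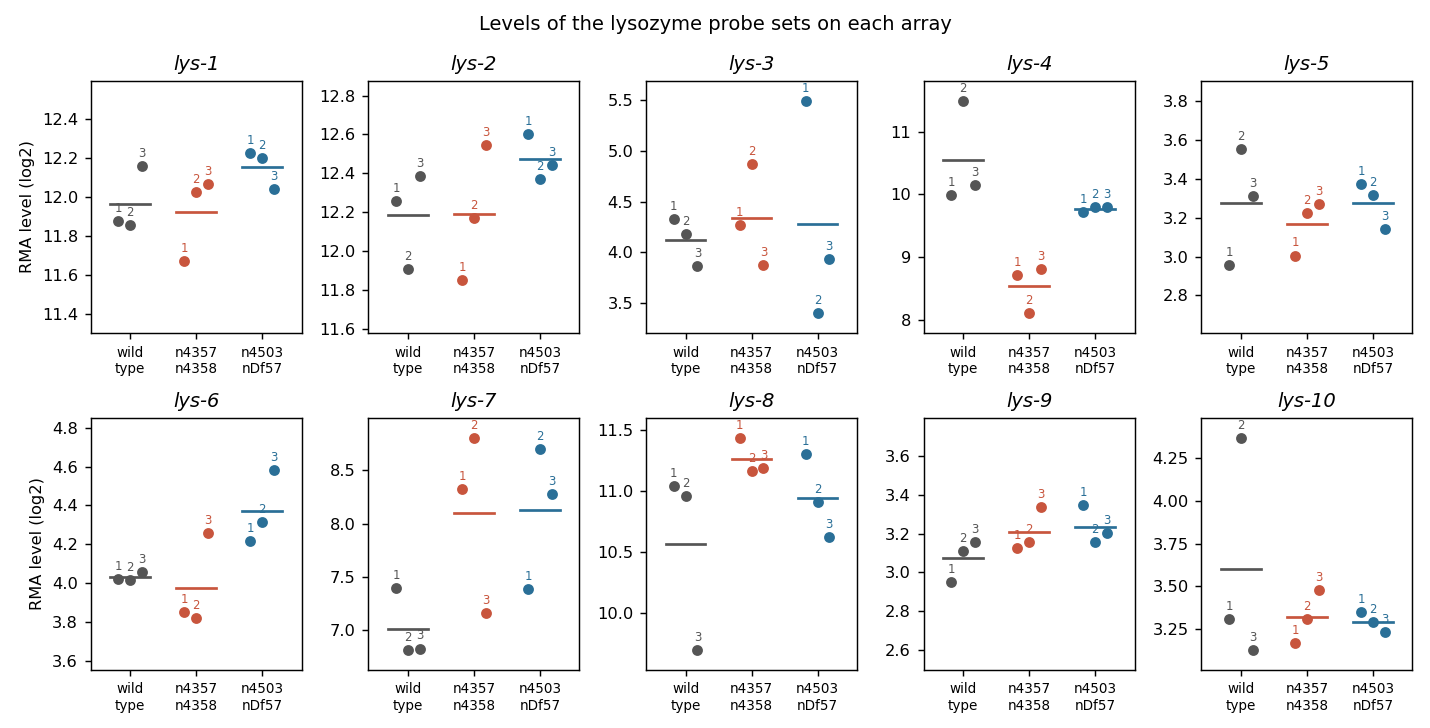
RMA level (log2) of each lysozyme probe set on each array, by group, with the replicate number above each point and a bar at the group mean (n = 3). The y axes differ between panels. The n4357 n4358 arrays of lys-4 sit between 8.11 and 8.81, below all other arrays, and the lys-7 panel shows 1 low array in each mutant group.

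With both mutants averaged and set against wild type, 2 of 10 members had an unadjusted limma p under 0.05, lys-4 on the lower and lys-7 on the higher side, where 3.61% of all probe sets had one (1.73% lower, 1.88% higher). The groups did not overlap for 1 member, lys-4, whose 6 mutant arrays all lay below wild type, as did those of 0.803% of all probe sets. Of the 10 differences, 7 were above 0, and 56.5% of all probe sets were. The median lysozyme difference was 0.15 log2, beside 0.02 over all probe sets.

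The lys-4 probe set stood at 9.99, 11.49 and 10.15 log2 in wild type. In n4357 n4358 lys-4 read 8.72, 8.11 and 8.81. In n4503 nDf57 it read 9.72, 9.79 and 9.79. Every mutant array thus lay below every wild-type array, the n4357 n4358 arrays lay below every n4503 nDf57 array, and wild-type replicate 2 lay far above the other arrays. The wild-type mean was 10.54 ± 0.82, beside 8.55 ± 0.38 for n4357 n4358 and 9.77 ± 0.04 for n4503 nDf57 (SD, n = 3 each).

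Against wild type the lys-4 difference was -1.99 log2 in n4357 n4358 (SE 0.37, 95% interval -2.84 to -1.15). By unadjusted limma p this was the 7th smallest of all 22548 probe sets, with an adjusted p of 0.883. In n4503 nDf57 it was -0.77 (SE 0.37, interval -1.62 to 0.08, limma adjusted p = 1), so the order of the wild-type and n4503 nDf57 means rests on a difference whose interval includes 0. Between the strains, n4503 nDf57 stood 1.22 log2 above n4357 n4358 for lys-4 (SE 0.37, interval 0.38 to 2.07, limma adjusted p = 0.977). The mean of both mutants was -1.38 from wild type for lys-4 (SE 0.32, adjusted p = 0.999).

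Wild-type replicate 2 weighed on the size of the lys-4 differences. Without it they were -1.52 in n4357 n4358, -0.30 in n4503 nDf57 and -0.91 in the mean of both. On the 6 arrays with the higher moulting genes alone, an alternative chosen after seeing the data, lys-4 differed by -1.65 in n4357 n4358 (limma adjusted p = 0.251), by -0.27 in n4503 nDf57 and by -0.96 in the mean of both. Array weights leaned most on n4503 nDf57 replicate 2 (weight 6.64). Within n4357 n4358 they leaned on replicate 2 (3.35, beside 0.86 and 0.15), the lowest lys-4 array at 8.11. With these weights the strain difference of lys-4 was 1.54 with a limma adjusted p of 0.0445 (0.63% of all probe sets passed there). That adjusted p was the lowest in a range of 0.0445 to 1 over 19 alternatives.

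lys-7 is an intestinal lysozyme known as a target of DAF-16 and as part of the response to bacterial and fungal infection. Its level was 7.39, 6.81 and 6.82 log2 in wild type. In n4357 n4358 lys-7 read 8.33, 8.81 and 7.16. In n4503 nDf57 it read 7.39, 8.70 and 8.28. The mutant groups each held 2 arrays above all wild-type arrays and 1 array within or next to the wild-type range, and these low arrays were the ones with the low moulting genes. The means were 7.01 ± 0.33, 8.10 ± 0.85 and 8.12 ± 0.67 (SD, n = 3 each).

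The lys-7 difference from wild type was 1.09 log2 in n4357 n4358 (SE 0.46, 95% interval 0.04 to 2.14, limma adjusted p = 0.883). In n4503 nDf57 it was 1.11 (SE 0.46, interval 0.07 to 2.16, limma adjusted p = 1). The strains were close to each other in lys-7, at 0.02 apart, with an interval from -1.02 to 1.07 that leaves room for a difference of 2-fold either way. The mean of both mutants stood 1.10 above wild type for lys-7 (SE 0.40), and the unadjusted limma p of this difference, 0.0230, became 0.0745 without wild-type replicate 2 and 0.0748 without wild-type replicate 3.

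Within the groups lys-7 followed the array pattern described above more closely than any other member. Across the 9 deviations from group means, lys-7 and the score of that pattern correlated at r = -0.92, a description over arrays that share their group means and of a score that was computed from all probe sets. With the mean of the moulting genes as a covariate, the difference of both mutants from wild type was 1.17 for lys-7 (SE 0.24, limma adjusted p = 0.553), and for lys-4 it was -1.41 (SE 0.29, adjusted p = 0.553). On the 6 arrays with the higher moulting genes alone, the lys-7 difference was 1.42 (SE 0.23, limma adjusted p = 0.499). That choice, made after seeing the data, left out the mutant arrays with the lowest lys-7 levels, 7.16 and 7.39.

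**Figure D2:**
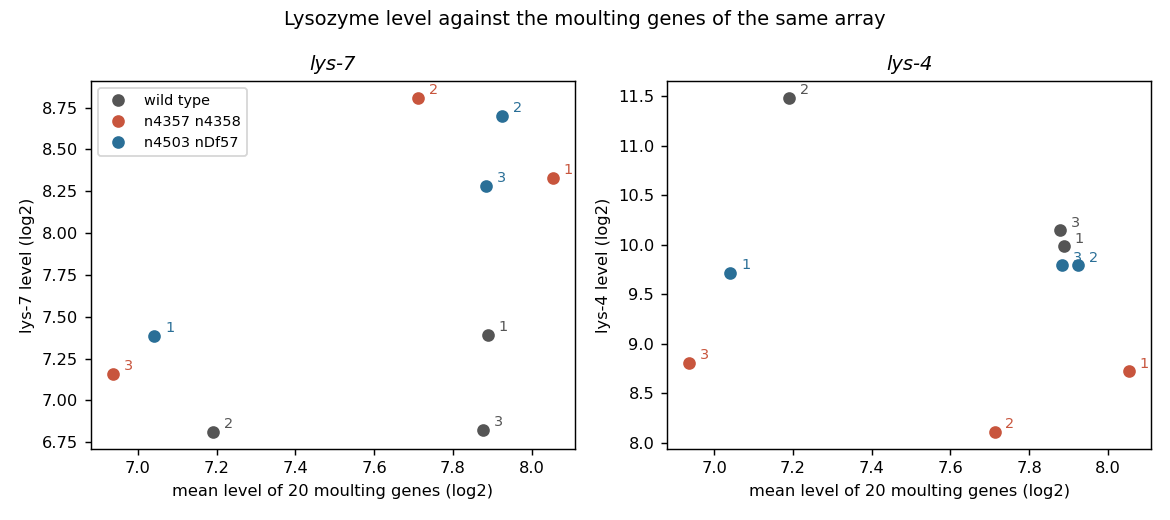
Level of lys-7 (left) and lys-4 (right) on each array against the mean level of 20 moulting genes on the same array, both in log2, with colours for the groups and numbers for the replicates. The mutant arrays at 6.94 and 7.04 on the x axis have lys-7 levels of 7.16 and 7.39, while the 4 other mutant arrays reach 8.28 to 8.81. lys-4 shows no such split in the mutants.

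lys-8, another intestinal lysozyme that responds to bacteria and is known to depend on DBL-1, stood at 11.05, 10.96 and 9.70 log2 in wild type. The n4357 n4358 arrays read 11.44, 11.17 and 11.19, and the n4503 nDf57 arrays 11.31, 10.92 and 10.62. The n4357 n4358 arrays all lay above wild type for lys-8, while n4503 nDf57 overlapped both other groups. The lys-8 difference in n4357 n4358 was 0.70 log2 (SE 0.34, interval -0.09 to 1.48, limma adjusted p = 0.883), and in n4503 nDf57 it was 0.38 (SE 0.34). Both rested largely on the low wild-type replicate 3, without which they were 0.26 and -0.056.

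lys-1, known to be induced by the pathogen Serratia marcescens, and lys-2, which is next to lys-1 in the reference, stood nearer to wild type than lys-4 and lys-7 did. On single arrays lys-1 ran from 11.67 to 12.23 log2 and lys-2 from 11.85 to 12.60. All groups overlapped in both genes. The interval of the difference between n4357 n4358 and wild type was -0.36 to 0.28 for lys-1 and -0.44 to 0.45 for lys-2, so larger changes than these were not seen at this precision. For n4503 nDf57 the differences were 0.19 (SE 0.14) for lys-1 and 0.29 (SE 0.19) for lys-2. With single arrays left out, the lys-1 difference ran from 0.14 to 0.29 and the lys-2 difference from 0.15 to 0.39.

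Although their differences between groups were small, lys-1 and lys-2 varied together across arrays. Their r was 0.85 over the 9 levels and 0.79 over the deviations from group means. Pairs of members that are not neighbours went further over the deviations, lys-4 with lys-10 at 0.87 and lys-7 with lys-9 at -0.90. The type of probe set used for lys-2 may also pick up related genes, and the part of lys-1 in its signal was not tested. lys-3, the next gene after lys-2 in the reference, had r = 0.03 against lys-1 and 0.06 against lys-2 over the levels. Its signal was weak, with a mean of 4.25 log2, so these values cannot show whether lys-3 varies apart from lys-1 and lys-2.

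lys-3 hybridised weakly and varied most between replicates of 1 group. The wild-type arrays read 4.33, 4.18 and 3.86 log2 and the n4357 n4358 arrays 4.27, 4.87 and 3.87. In n4503 nDf57 lys-3 read 5.49, 3.40 and 3.94, which holds both the highest and the lowest of the 9 values. The difference of both mutants from wild type was 0.18 (SE 0.43) for lys-3, and it was -0.12 without n4503 nDf57 replicate 1.

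lys-5 and lys-6 are neighbours of lys-4 in the reference but had low signals. On the wild-type arrays lys-6 read 4.02, 4.01 and 4.06 log2, on those of n4357 n4358 3.85, 3.82 and 4.26, and on those of n4503 nDf57 4.22, 4.31 and 4.58. The n4503 nDf57 arrays of lys-6 lay above all wild-type arrays, a pattern that 4.02% of all probe sets had in that comparison, and they overlapped n4357 n4358. The lys-6 differences were 0.34 from wild type (SE 0.15, interval 0.01 to 0.67) and 0.39 from n4357 n4358 (SE 0.15, limma adjusted p = 0.977). With array weights the second was 0.50 with a limma adjusted p of 0.0362, the lowest in a range of 0.0362 to 1 over 19 alternatives.

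The probe set named for both lys-5 and lys-6 gave 3.75, 4.11 and 3.63 log2 on the wild-type arrays, 3.50, 3.48 and 3.66 on those of n4357 n4358, and 4.09, 3.83 and 4.10 on those of n4503 nDf57. There n4503 nDf57 lay above n4357 n4358 on every array, as for 3.37% of all probe sets, but overlapped wild type. lys-5 itself ran from 2.96 to 3.55 over all arrays with overlapping groups and a difference of -0.05 (SE 0.14) for the mean of both mutants.

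lys-9 and lys-10 were, with lys-5, the 3 members whose mean lay below the 30th percentile of all probe sets (3.90 log2), and 7 of 10 members lay above it. lys-9 ran from 2.95 to 3.35 log2 with overlapping groups. lys-10 stood between 3.13 and 3.48 on 8 arrays and at 4.37 on wild-type replicate 2. Its difference of -0.30 (SE 0.25) for the mean of both mutants rested on that array and was 0.087 without it. At such low levels RMA compresses differences, so the size of any change in these genes cannot be read from the values.

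**Figure D3:**
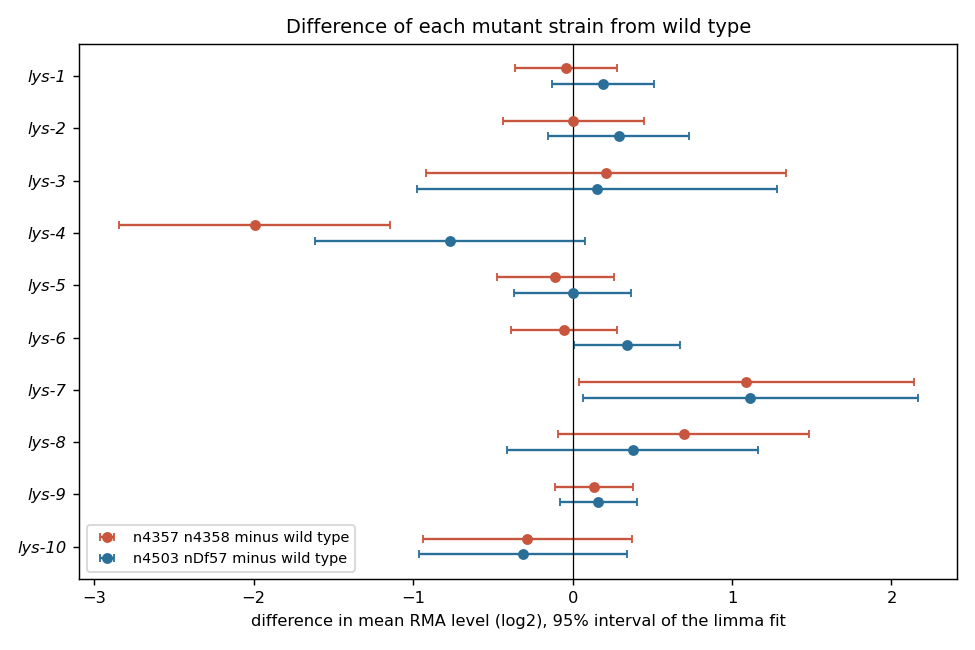
Difference in mean RMA level (log2) of each mutant strain from wild type for the 10 lysozyme probe sets, with 95% intervals of the limma fit (3 arrays a group). In n4357 n4358, lys-4 at -1.99 lies farthest from 0, and lys-7 lies near 1.1 in both strains. Both strains are set against the same wild-type arrays.

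Taken by strain, 2 of 10 members had an unadjusted limma p under 0.05 in n4357 n4358 (lys-4 lower and lys-7 higher, beside 3.99% of all probe sets, 2.03% lower and 1.96% higher), 2 in n4503 nDf57 (lys-6 and lys-7, both higher, beside 2.83%, 1.72% higher and 1.11% lower) and 2 between the strains (lys-4 and lys-6, both higher in n4503 nDf57, beside 2.47%, 0.758% lower and 1.71% higher). The groups of n4357 n4358 and wild type did not overlap for lys-4 (lower, as for 4.70% of all probe sets) and lys-8 (higher, 4.36%). In n4503 nDf57 the lys-4 arrays lay below all wild-type arrays, as for 2.56% of all probe sets. Between the strains lys-4 alone among the members did not overlap, with n4503 nDf57 above, as for 3.37% of all probe sets, while 2.12% had it below. The n4357 n4358 difference was above 0 for 5 of 10 members (54.1% of all probe sets), the n4503 nDf57 difference for 8 of 10 (54.9%) and the strain difference for 7 of 10 (50%). The median lysozyme differences were -0.02 in n4357 n4358, 0.18 in n4503 nDf57 and 0.07 between the strains, beside 0.019, 0.015 and 0.00019 over all probe sets.

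Genome order was then used to see whether genes beside lys-4 shared its difference, a comparison chosen after its values were seen. In the RefSeq gene table (assembly WBcel235) lys-1, lys-2 and lys-3 follow each other directly among protein-coding genes, as do lys-4, lys-5 and lys-6, and the other 4 members have no lysozyme within 3 genes. In n4357 n4358 the gene before lys-4, dsl-5, differed from wild type by -0.01 log2 (SE 0.08), and lys-5 and lys-6 after it by -0.11 (SE 0.16) and -0.05 (SE 0.15). The low lys-4 level was thus not accompanied by differences of like size in the genes directly beside it, although lys-5 and lys-6 were measured near the lower end of the scale. F58B3.4, the first gene after lys-6, stood at -0.94 in n4357 n4358 with an SE of 0.62, and at -0.66 in n4503 nDf57.

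**Figure D4:**
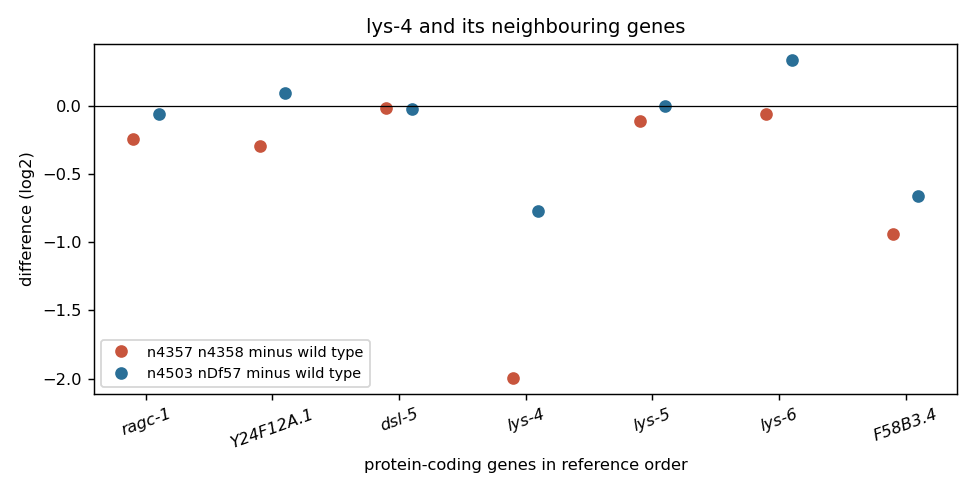
Difference in mean RMA level (log2) of each mutant strain from wild type for lys-4 and the 3 protein-coding genes on each side, in reference order. In n4357 n4358 the points of dsl-5, lys-5 and lys-6 lie between -0.11 and -0.01, that of F58B3.4 at -0.94 and that of lys-4 at -1.99.

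For the 5 members that varied most over the arrays (SD above the 75th percentile of all probe sets), the probe sets of most similar pattern were found by Pearson correlation over the 9 arrays, as a description. lys-4 was followed most closely by tag-250 (r = 0.94), F46F5.11 (0.94) and ZK1290.7 (0.93), of which tag-250 averaged 6.99 log2 on wild-type arrays, 6.45 on those of n4357 n4358 and 6.73 on those of n4503 nDf57. The lys-7 pattern was closest to lsy-13 (r = 0.93), F59B10.3 (0.93) and pgp-14 (0.92), the last a member of the P-glycoprotein transporters. lys-8 was nearest to perm-3 (r = 0.97), kola-3 (0.96) and pid-4 (0.95), and lys-3 to K09C4.9 (0.96), the tetraspanin gene tsp-1 (0.96) and arrd-3 (0.95). lys-10 was nearest to srh-258 (0.99), T02C1.1 (0.97) and E03H4.4 (0.97), and in all of these wild-type replicate 2 was the highest array. Several of these genes varied by little, with an SD of 0.05 log2 for K09C4.9 and 0.07 for ZK1290.7. Over 9 arrays and 20766 singly named probe sets, correlations of this size were picked as the highest of many.

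The other lysozyme family had no member past the threshold in any contrast, as no probe set at all passed. Over its 6 genes the median difference of both mutants from wild type was 0.07 log2, and 5 of 6 differences were above 0. ilys-5 (represented by the highest of its probe sets) averaged 12.11 ± 0.57 log2 on wild-type arrays, 12.10 ± 0.19 on those of n4357 n4358 and 12.22 ± 0.04 on those of n4503 nDf57 (SD, n = 3 each). For ilys-4 the wild-type arrays read 6.43, 7.90 and 6.67, those of n4357 n4358 6.75, 6.48 and 6.53, and those of n4503 nDf57 6.93, 6.46 and 6.59, a difference of -0.38 for both mutants (SE 0.30). In both genes wild-type replicate 2 was the highest of the 9 arrays, at 12.76 and 7.90, as it was for lys-4, lys-5 and lys-10. ilys-3, which is known to digest bacteria in the gut, averaged 4.07 in wild type and 4.17 in both mutant strains. ilys-2 and ilys-6 lay near the lower end except on n4357 n4358 replicate 3, at 4.42 and 3.93, and ilys-1 averaged 2.91 to 2.94 log2 in the 3 groups.

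Among other genes of gut defence are the caenopores and saposin-like proteins, which are pore-forming or lipid-binding antibacterial peptides. Of these, 0 of 17 passed the threshold in either direction, as no probe set at all did. Their median difference of both mutants was 0.02 log2. spp-4, the member with the smallest p, read 9.65, 10.27 and 9.68 on wild-type arrays, 9.05, 8.57 and 9.44 on those of n4357 n4358 and 9.04, 9.41 and 9.36 on those of n4503 nDf57. All mutant arrays of spp-4 lay below wild type, with a difference of -0.72 (SE 0.22, limma adjusted p = 0.999). Among 20 infection response genes 0 passed, with a median of 0.075 and irg-3 at -1.31 (SE 0.26). All 6 mutant arrays of irg-3, at 8.77 to 9.79, lay below the wild-type arrays, at 10.02 to 11.02. Of all probe sets, 0.803% had all mutant arrays below wild type, and spp-4 and irg-3 were each named for the smallest p of their list.

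In the lists of signalling genes, intestinal transcription factors and moulting genes, 0 passed in either direction, as 0 of all 22548 probe sets did. The 8 measured genes of the p38 pathway had a median of 0.05 log2, with the kinase kinase gene sek-1 at 0.26 (SE 0.12). The 10 genes of DBL-1 signalling had a median of -0.11 and 7 of 10 below 0, with lon-2, a cell-surface inhibitor of this pathway, at -0.41 (SE 0.15). In insulin signalling (11 genes, median 0.055) the receptor gene daf-2 stood at 0.32 (SE 0.18) and daf-16 at 0.01 (SE 0.12). The 10 intestinal transcription factors had a median of 0.03, with elt-2, the GATA factor of the intestine, at -0.14 (SE 0.11). The moulting genes had a median of -0.01, with mlt-10 at 0.27 (SE 0.21).

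Markers of the tissues that could carry lysozyme messages were read beside these results. All 12 measured intestine markers together had array means of 8.84 to 9.25 log2 for wild type, 8.99 to 9.30 for n4357 n4358 and 9.08 to 9.20 for n4503 nDf57, and 8 of 12 were higher in the mean of both mutants, with ges-1, a gut esterase, at 0.18 (SE 0.09). The intestine marker means overlapped between all 3 groups of arrays. All 9 pharynx markers were above 0 (median 0.15, myo-2 at 0.24 with an SE of 0.14), with group means of 5.46, 5.75 and 5.57 for wild type, n4357 n4358 and n4503 nDf57. All 4 coelomocyte markers were above 0 (median 0.27, lgc-26 at 0.59 with an SE of 0.15), and their array means were 5.28 to 5.44, 5.37 to 5.68 and 5.76 to 5.84 in the same order. Body muscle markers were higher in 6 of 6 (median 0.27, unc-27 at 0.28), hypodermis in 4 of 7 (median 0.00062, bli-2 at -0.23), neurons in 2 of 7 (median -0.06, ric-19 at -0.20) and germline in 5 of 9 (median 0.06, pgl-3 at 0.52). Sperm markers were higher in 1 of 8 (median -1.13, msp-19 at -1.23) and yolk genes in 0 of 5 (median -0.48, vit-4 at -1.61). The large sperm differences were those of the msp probe sets, which may also pick up related genes by their type. They ran from -1.52 to -0.91 in n4357 n4358 and from -1.68 to -1.31 in n4503 nDf57. The other sperm genes ran from -0.27 to 0.21 and from -0.26 to 0.03. No marker passed limma's adjusted threshold, as no probe set at all did. The part of the marker shifts in the lysozyme differences was not tested.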

How the data were processed

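RNA of whole animals was labelled with biotin by the 3' in vitro transcription method and hybridised to Affymetrix arrays, per the labels' protocols. The authors deposited 1 log2 level per probe set and array. RMA and limma are named per the submitters' processing notes, with version not given in the sources used here. As RMA subtracts background and equalises the arrays' distributions, a shift common to most genes is removed. The 77 Affymetrix control probe sets were dropped here. Of the 22548 remaining, 20766 name 1 gene, 887 several and 895 none. Among the lysozyme probe sets, 5 (those of lys-2, lys-3, lys-4, lys-6 and lys-7) may also pick up related genes, by their type.

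One limma fit (limma 3.58.1, statmod 1.5.0, R 4.3.3) held a mean per group over all 9 arrays, with 6 residual and 2.38 prior degrees of freedom. Unadjusted p-values are those of limma's moderated test, two-sided, and the Benjamini-Hochberg adjustment ran over all 22548. Arrays give no read depth, and their number limits precision. No arrays were identical.

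Every lysozyme probe set is named. From each other list the member with the smallest unadjusted p in the mean of both mutants is named (of the ilys genes, all), and each gene there is represented by its probe set of highest mean. Genes of similar pattern were the 3 highest correlations for each lysozyme whose SD lay above the 75th percentile. The lists were other lysozymes, caenopores, infection response, p38, DBL-1 and insulin signalling, intestinal transcription factors, moulting genes, and markers of intestine, pharynx, coelomocytes, muscle, hypodermis, neurons, germline, sperm and yolk. The members and lists were chosen with earlier results of these data known. Named outside that rule, after their values were seen, are daf-16 and the genes beside lys-4. A planned count of promoter motifs was not run, as no promoter sequence was used here. Figures were drawn with Python 3.11.15 and matplotlib 3.10.9.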

Additional observations from a re-analysis of the deposited data

How the results depend on the processing

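The count of lysozymes past the threshold was 0 in the main fit in each of the 4 contrasts and stayed 0 under every alternative run except array weights, where 2 members (lys-4 and lys-6) passed between the strains. Array weights also called the most probe sets over the whole table, 0.63% in that contrast, and 37 in n4503 nDf57, 4 in n4357 n4358 and 2 in both mutants, where each other setting called 0 to 2. Tried were a filter on low values, only the groups compared, array weights, a replicate block, a robust variance prior with trend, cyclic loess, median centring, no shared probe sets, the moulting mean or the first component inside the groups as a covariate, a threshold of 0.1, each array left out, and, chosen after seeing the data, only the 6 arrays with higher moulting genes. Correlations of deviations between same-numbered arrays of 2 groups ran from -0.60 to 0.40, and between differently numbered arrays from -0.54 to 0.65. The pattern that held 59.8% of the variation inside the groups fell on a different number in each group. These correlations therefore cannot decide whether the replicate numbers pair the samples. With the replicate block the lys-4 and lys-7 differences stayed at -1.38 and 1.10 for both mutants and 0 probe sets passed.

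The directions of the lys-4 differences from wild type and between the strains were kept under all alternatives that held this gene. So were those of the lys-7 and lys-9 differences from wild type. Leaving out shared probe sets removed lys-4 and lys-7, and the filter on low values removed lys-9, so those settings could not test them. Several differences changed sign. With array weights lys-2 in n4357 n4358 became -0.115, lys-3 in n4503 nDf57 -0.569, lys-5 in both mutants 0.0085 and lys-7 between the strains -0.052, while lys-3 between the strains went from -0.059 to -1.18, and the median for both mutants was 0.039. Under cyclic loess lys-10 and lys-7 between the strains became 0.016 and -0.071, and lys-5 in n4503 nDf57 -0.0017. Median centring gave -0.016 for lys-2 in n4357 n4358 and -0.0072 for lys-5 in n4503 nDf57. The moulting covariate gave -0.013 for lys-2 in n4357 n4358, -0.0092 for lys-5 in n4503 nDf57 and -0.029 for lys-7 between the strains. The filter on low values, which left 7 members, raised the medians to 0.29 in n4503 nDf57 and 0.23 between the strains. On the 6 arrays alone, differences of both mutants were -0.033 for lys-1, -0.113 for lys-2, 0.037 for lys-5 and 0.033 for lys-10, with a median of 0.035. There lys-2 was -0.31 and lys-10 0.022 in n4357 n4358, lys-3 -0.43 and lys-10 0.044 in n4503 nDf57, and lys-10 0.022 and lys-7 -0.077 between the strains.

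With single arrays left out, differences in n4357 n4358 ran from -0.12 to 0.083 for lys-1, -0.17 to 0.17 for lys-2, -0.056 to 0.44 for lys-3, -0.27 to 0.032 for lys-5, -0.19 to 0.024 for lys-6 and -0.52 to 0.10 for lys-10. In n4503 nDf57 they ran from -0.46 to 0.59 for lys-3, -0.16 to 0.14 for lys-5, -0.056 to 0.62 for lys-8 and -0.55 to 0.073 for lys-10. For both mutants they ran from -0.12 to 0.40 for lys-3, -0.21 to 0.086 for lys-5 and -0.53 to 0.087 for lys-10. Between the strains they ran from -0.67 to 0.38 for lys-3, -0.45 to 0.39 for lys-7, -0.028 to 0.093 for lys-9 and -0.10 to 0.050 for lys-10. The family medians ran from 0.066 (without n4357 n4358 replicate 3) to 0.17 for both mutants, from -0.14 to 0.13 in n4357 n4358, from 0.11 to 0.27 in n4503 nDf57 and from 0.068 to 0.24 between the strains. In each case the cause was not tested.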
